A study of Bos taurus with 88 samples.

Results

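The 4 genes described here, ENSBTAG00000017405, ENSBTAG00000003794, ENSBTAG00000047816 and ENSBTAG00000047700, were chosen from the 24616 genes of the deposited count files because they had the largest rises in whole blood from 72 h to 168 h after birth in H or LF calves. The choice used the size of the rise from 72 h to 168 h in H and LF calves, so the levels and rises of these calves at these ages are given as a description with no test. The levels at birth and at 48 h and all samples of the CL calves were not used in the choice. Correlations across calves were tested at every age, the ages of the choice included, on values with the breed mean taken off. Such values do not hold the mean rise of a breed, but a single high calf can enter both the choice and r. The tests at 72 h and 168 h are therefore not free of the choice. The reference table at hand held no Ensembl identifiers (0 of 37063 rows), so none of the 4 identifiers could be paired with a gene name and no function or sequence is given for them. For the same reason levels were compared between samples of 1 gene and not between genes, since gene lengths were not at hand.

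Blood was taken from 22 calves at 0, 48, 72 and 168 h of age, which gave 88 samples, and each calf was followed through all 4 ages. The 8 H calves were Holstein dairy calves that were removed from the dam, tube-fed colostrum of their own dam at 5% of body weight after the 0 h sample, and later moved to a group pen with milk replacer between the 72 h and the 168 h sample. The 7 CL and 7 LF calves were beef calves that suckled their dams, which were Charolais × Limousin (CL) and Limousin × Friesian (LF) cows. The breed names CL and LF refer to the cow, because the beef calves were sired by Aberdeen Angus or Charolais bulls. The H calves came from a research dairy farm in Northern Ireland and the beef calves from a suckler herd in Ireland. Breed, feeding, housing and farm therefore cannot be told apart between H and beef calves. All cows, dairy and beef, had been vaccinated before calving.

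A newborn calf receives almost no antibody through the placenta and takes it up from colostrum across the gut in the first day of life. Its own lymphocytes meet antigen from birth onwards and respond over the following days, while cells that were abundant at birth leave the blood. Whole-blood RNA holds the transcripts of all circulating cells together, so fewer cells of a type and less RNA per cell cannot be told apart in any of the values below.

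Between 10023822 and 39304404 reads per sample were counted on genes (median 22595526.5). A count of 3 reads corresponded to between 0.0763 and 0.299 CPM (reads of a gene relative to the reads of the sample on all genes) across samples. The levels below were also corrected by edgeR's TMM factors, which this range does not hold. With the factors 3 reads in calf H6 were 0.40 CPM at 0 h and 0.48 CPM at 72 h. Samples with at most 3 reads of a gene were taken as at this floor and read as not detectable at this depth. In 13 of the 88 samples the profile of the other genes was nearer to the mean of another age of the same breed than to that of its own age, 6 at 48 h, 5 at 72 h and 2 at 168 h, and none at 0 h. The 168 h samples of calves CL1 and CL2 were nearest to the 72 h mean, and those nearest to the 168 h mean were the 48 h and 72 h samples of calf LF5, the 72 h sample of CL6 and the 48 h sample of CL7. Of these calves CL1 and LF5 were singled out, and values that rest on them are given with and without them. The 72 h sample of H5 lay farthest from the mean of its own age (root mean square log2 difference 1.27). The rises of H calves are not given without H5. The share of reads mapped to several places, which were not counted, had a median of 13.5% at 72 h and 8.83% at 168 h, and its part in the rises was not tested.

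In H calves the 3 largest fitted rises among 12541 genes were those of ENSBTAG00000017405 (log2 fold change 3.72), ENSBTAG00000003794 (3.56) and ENSBTAG00000047816 (3.46). The gene just outside was ENSBTAG00000019697 with 3.29. ENSBTAG00000047700 ranked 10 in H calves with 2.67. In LF calves the largest of 12738 fitted rises were those of ENSBTAG00000047700 (4.30) and ENSBTAG00000047816 (3.64), both also higher at 168 h in every calf. The gene just outside among genes with a rise in every LF calf was ENSBTAG00000048135 with 3.35. ENSBTAG00000017405 ranked 9 (2.63) and ENSBTAG00000003794 ranked 18 (2.23) in LF calves. The 4 genes thus came from the H list, the LF list or both, and only ENSBTAG00000047816 was at the head of both.

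At birth ENSBTAG00000017405 was near the floor in all 3 breeds. In H calves at 0 h its level was between 0.16 and 0.80 CPM (median 0.404), with 3 to 11 reads per sample. In CL calves at 0 h it was between 0.15 and 0.88 CPM (median 0.324), and in LF calves between 0 and 0.92 CPM (median 0.333). The ranges of the 3 breeds overlapped, and the single sample at 0 reads, from calf LF4, allowed a level of up to 3 reads.

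The gene stayed low for 3 days, although in CL calves the medians at 48 h and 72 h were above the 0.324 CPM at birth. In H calves the medians were 0.4998 CPM at 48 h and 0.476 CPM at 72 h, and no sample exceeded 0.91 CPM. In CL calves the medians were 0.688 and 0.769 CPM with no sample above 1.24 CPM. In LF calves the medians were 0.303 and 0.245 CPM, and the single high value was 3.17 CPM in calf LF5 at 72 h, the sample whose other genes also stood nearest to the 168 h mean. At 168 h the level lay between 1.73 and 14.6 CPM in H calves (median 4.24), between 0.49 and 7.64 CPM in CL calves (median 6.03) and between 3.03 and 7.46 CPM in LF calves (median 4.08). The 168 h range of H calves did not overlap with any earlier age, and in LF calves it overlapped only with the 72 h sample of LF5. In CL calves 6 of 7 samples at 168 h lay above every earlier CL sample, and the exception was CL1, with 0.48 CPM at 72 h and 0.49 CPM at 168 h.

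ENSBTAG00000003794 was also low up to 72 h and higher at 168 h in most calves. Within calves it was lower at 48 h than at birth in 17 of 22, where ENSBTAG00000017405 was higher in 16 of 22. From 48 h to 72 h ENSBTAG00000003794 was higher in 18 of 22, at a few reads in most samples. At 0 h it was between 0.12 and 0.40 CPM in H calves (median 0.188), between 0.05 and 1.79 CPM in CL calves (median 0.229) and between 0.05 and 0.52 CPM in LF calves (median 0.296). Of the 8 H samples at birth, 4 held at most 3 reads of this gene, among them the highest of these H values, 0.40 CPM in calf H6. The high value at birth, 1.79 CPM, belonged to calf CL7, which fell to 0.49 CPM at 48 h, and the other CL calves lay at 0.54 CPM or below.

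At 48 h the medians of ENSBTAG00000003794 were 0.210 CPM in H, 0.112 CPM in CL and 0.151 CPM in LF calves, and at 72 h they were 0.268, 0.296 and 0.251 CPM. The 72 h sample of LF5 again stood apart with 2.15 CPM, while the other LF calves reached at most 0.45 CPM. At 168 h the gene was at 0.94 to 6.28 CPM in H calves (median 2.61), 0.29 to 2.97 CPM in CL calves (median 2.08) and 1.63 to 4.59 CPM in LF calves (median 1.87). All H calves at 168 h lay above all H samples of the earlier ages. Calf CL1 was low with 0.29 CPM, and the other CL calves lay at 1.84 CPM or above.

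ENSBTAG00000047816 had a different course, with a level well above the floor at birth in most calves, a lower level at 48 h and 72 h, and the highest level at 168 h. At 0 h it was between 1.10 and 11.97 CPM in H calves (median 3.28), between 0.23 and 6.23 CPM in CL calves (median 1.05) and between 0.04 and 5.13 CPM in LF calves (median 0.991). At 48 h the medians were 0.746 CPM in H, 0.0750 CPM in CL and 0.0357 CPM in LF calves. In 3 of 7 LF calves no read of the gene was found at 48 h, and 5 of 7 LF samples and 4 of 7 CL samples held at most 3 reads, so that the low point in beef calves lay at or under what this depth could show.

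At 72 h ENSBTAG00000047816 was between 0.38 and 3.17 CPM in H calves (median 1.29), between 0 and 6.79 CPM in CL calves (median 0.296) and between 0.05 and 1.51 CPM in LF calves (median 0.0837). At 168 h it was between 3.46 and 39.9 CPM in H calves (median 10.8), between 0.31 and 17.1 CPM in CL calves (median 6.17) and between 1.08 and 7.55 CPM in LF calves (median 4.45). Calf CL7 did not take part in this course, with 6.23, 4.42, 6.79 and 6.85 CPM at the 4 ages. Calf CL6 reached only 0.31 CPM at 168 h, while the other CL calves lay at 3.40 CPM or above. All 8 H calves at 168 h were above the highest H sample at 72 h, 3.17 CPM, but the ranges at 0 h and 168 h overlapped in every breed.

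ENSBTAG00000047700 was also present at birth and lower at 48 h in most calves. At 0 h it was between 1.22 and 19.3 CPM in H calves (median 2.96), between 0.77 and 10.2 CPM in CL calves (median 2.65) and between 1.23 and 9.12 CPM in LF calves (median 2.63). At 48 h the medians were 2.04 CPM in H, 1.53 CPM in CL and 0.679 CPM in LF calves. No sample of this gene was without reads at any age, and the lowest count was 3 reads in an H calf at 48 h.

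At 72 h the medians of ENSBTAG00000047700 were 3.25 CPM in H, 0.889 CPM in CL and 1.24 CPM in LF calves. At 168 h the level was between 5.35 and 76.3 CPM in H calves (median 15.3), between 1.5 and 35.3 CPM in CL calves (median 18.1) and between 5.75 and 76.1 CPM in LF calves (median 29.3). In LF calves every sample at 168 h lay above every sample at 48 h and 72 h. In H calves the ranges at 72 h and 168 h overlapped, because calf H6 had 5.45 CPM at 72 h and 5.35 CPM at 168 h. The 72 h sample of H6 had 45.7% of reads mapped to several places, the highest share at that age, against 12.7% at 168 h. Relative to reads on genes without the TMM factors, the gene was lower in H6 at 72 h than at 168 h. The flat course of H6 therefore depended on this correction, and the part of the library in it was not tested. In CL calves the overlap came from CL1, with 1.5 CPM at 168 h.

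**Figure D1:**
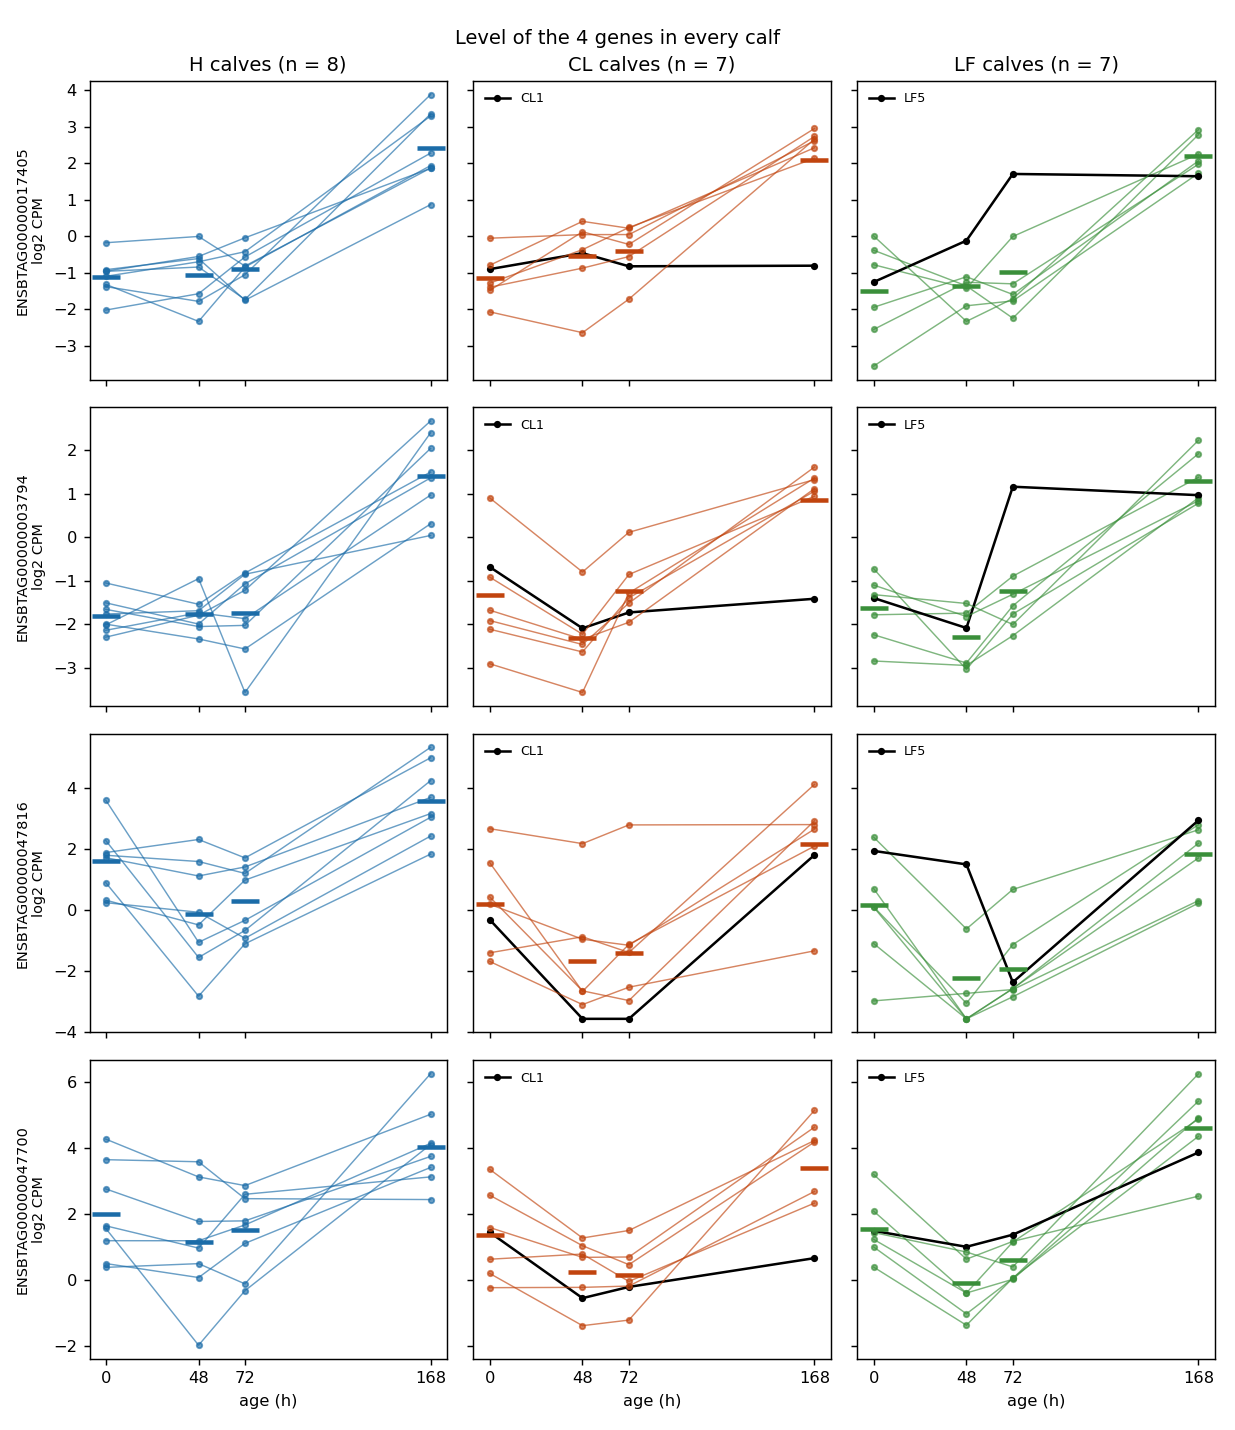
Level of each gene (rows) as log2 CPM on the y axis against age in hours on the x axis, with 1 line per calf and a thick dash at the mean of each breed and age; calves CL1 and LF5 are drawn in black. The 2 upper genes stay low to 72 h and are high at 168 h in nearly all calves, CL1 stays low at 168 h, and LF5 is already high at 72 h. The 2 lower genes dip at 48 h and 72 h first.

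Ordered by the group mean, the 3 groups at 168 h were the highest of the 12 groups for each of the 4 genes. For ENSBTAG00000017405 the order was H (6.46 ± 4.47 CPM, mean ± SD, n = 8), CL (5.21 ± 2.33, n = 7) and LF (4.72 ± 1.74, n = 7), followed by LF calves at 72 h with 0.742 ± 1.10 CPM (n = 7). For ENSBTAG00000003794 it was H (3.08 ± 1.92 CPM, n = 8), LF (2.54 ± 1.16, n = 7) and CL (2.01 ± 0.847, n = 7), followed by LF calves at 72 h with 0.525 ± 0.725 CPM (n = 7). In both genes the mean of LF calves at 72 h came mainly from LF5, and the samples of neighbouring groups overlapped at every step of the order.

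For ENSBTAG00000047816 the order at 168 h was H (16.04 ± 13.2 CPM, n = 8), CL (6.50 ± 5.29, n = 7) and LF (4.33 ± 2.63, n = 7), followed by H calves at birth with 3.86 ± 3.52 CPM (n = 8). The lowest group mean was that of LF calves at 72 h, 0.327 ± 0.532 CPM. For ENSBTAG00000047700 the order at 168 h was LF (31.3 ± 23.1 CPM, n = 7), H (22.7 ± 23.2, n = 8) and CL (15.7 ± 12.2, n = 7), followed by H calves at birth with 6.14 ± 6.50 CPM (n = 8). Its lowest mean was that of LF calves at 48 h, 1.03 ± 0.664 CPM. Neighbouring groups in these orders overlapped at every step as well. At 168 h the ranges of the 3 breeds overlapped for all 4 genes, and the breed with the highest mean was H for 3 genes and LF for ENSBTAG00000047700. The differences between breeds at 168 h were not tested, because the choice of the genes used the H and LF samples of that age.

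Followed within calves, ENSBTAG00000047816 was higher at 168 h than at 72 h in 22 of 22 calves, and the other 3 genes in 21 of 22. Among all 13801 genes, 6.29% were higher in every H calf, 7.22% in every CL calf, 11.1% in every LF calf and 1.04% in all 22 calves, and since H and LF calves chose the genes nothing was read from their counts. The 1 calf in which ENSBTAG00000017405 and ENSBTAG00000003794 were not higher was LF5, with log2 changes of -0.06 and -0.19. Any change above 0 was counted as higher. The counts thus include CL1, with 0.02 and 0.31 for these genes at 11 reads or fewer per sample. They also include CL7, with 0.01 for ENSBTAG00000047816. Without CL1 and LF5, ENSBTAG00000017405 and ENSBTAG00000003794 were higher at 168 h in 20 of 20 calves. Leaving out LF5 removed the only calf without a rise in them, so this count was fixed by that step and nothing was read from it. For ENSBTAG00000047700 the calf without a rise was H6, with a log2 change of -0.03, a value that depended on the TMM factors.

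The sizes of the changes overlapped between breeds. For ENSBTAG00000017405 the median log2 change within calves was 2.81 in H, 2.57 in CL and 3.50 in LF calves. The medians for ENSBTAG00000003794 were 2.86, 2.45 and 2.54, and those for ENSBTAG00000047816 were 3.31, 3.80 and 3.92. ENSBTAG00000047700 had medians of 2.23, 2.87 and 4.29, the widest spread of the 4 genes over breeds, with single calves from -0.03 to 6.37.

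**Figure D2:**
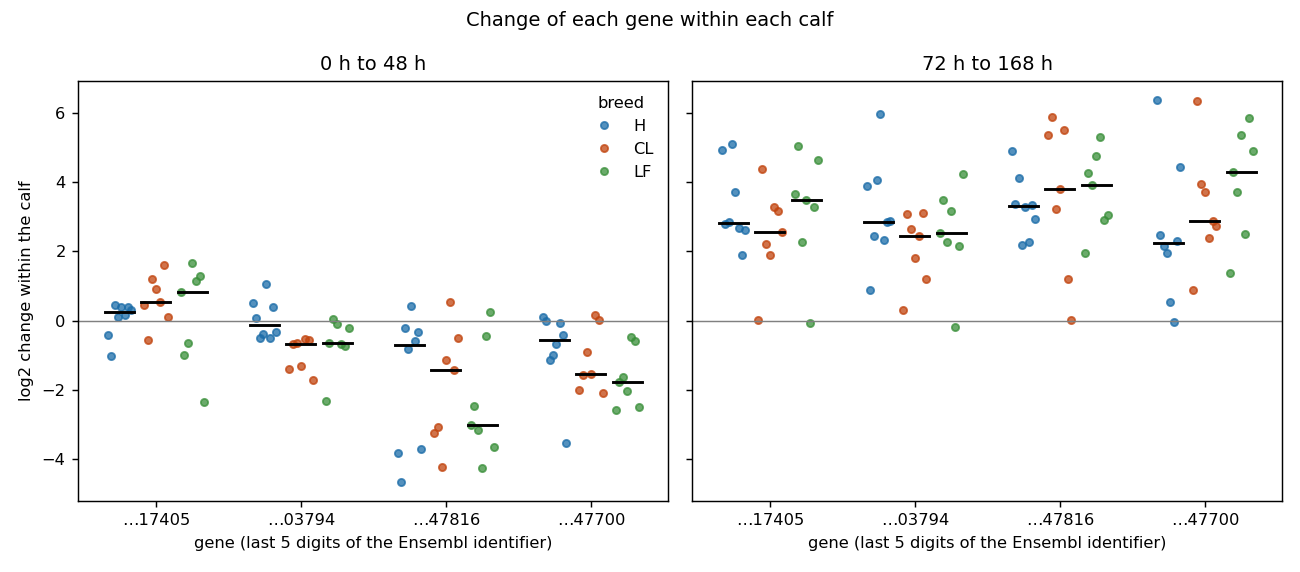
Change of each gene within each calf on the log2 CPM scale (y axis) from 0 h to 48 h (left) and from 72 h to 168 h (right), by gene on the x axis and by breed in colour; each point is 1 calf and the black bar is the breed median. From 72 h to 168 h nearly all points lie above 0, with single calves near 0 in each gene, and from 0 h to 48 h most points of ENSBTAG00000047816 and ENSBTAG00000047700 lie below 0.

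In LF calves the fitted log2 fold changes from 72 h to 168 h depended on LF5. Without it, an alternative chosen after seeing the data, ENSBTAG00000017405 moved from 2.63 to 3.85 and ENSBTAG00000003794 from 2.23 to 3.34. ENSBTAG00000047816 was at 3.30 and ENSBTAG00000047700 at 4.58 without this calf. Across all genes, 3.36% were called higher in H and 3.34% in LF calves in this contrast, from which nothing was read because it chose the genes.

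The CL calves gave the same contrast in animals that the choice had not used. All 4 genes passed the filter on low counts, which a gene high only at 168 h passes through that group. The fitted log2 fold change from 72 h to 168 h was 2.79 ± 0.46 (SE) for ENSBTAG00000017405 and 2.29 ± 0.45 for ENSBTAG00000003794. It was 2.42 ± 1.03 for ENSBTAG00000047816 and 3.66 ± 0.63 for ENSBTAG00000047700. Among 12770 genes these rises ranked 2, 6, 4 and 1, so the genes that led in H or LF calves were also at the head of the CL calves.

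None of the 4 rises in CL calves was called by edgeR's quasi-likelihood test at the thresholds used here, an adjusted p under 0.05 with a fold change of 1.5 or more. The adjusted p was 0.103 for ENSBTAG00000017405, ENSBTAG00000003794 and ENSBTAG00000047700 and 0.179 for ENSBTAG00000047816. The same test called 0.0157% of all genes, 2 genes that were both lower at 168 h, while 3043 genes had an unadjusted p under 0.05 and DESeq2 called 683. With the calf as a block all 4 genes were called, with log2 fold changes of 2.67, 2.35, 3.83 and 3.34 and adjusted p of 0.00831, 0.00660, 0.0387 and 0.0126 in the order above, against 1.27% of all genes called higher.

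The call of ENSBTAG00000047816 with the calf as a block rested on all 7 calves. Leaving out any one of CL1 to CL6 gave an adjusted p between 0.0646 and 0.0994 in that fit, and without CL7 the gene did not pass the filter. The other 3 genes stayed called with the calf as a block whichever CL calf was left out, with adjusted p of at most 0.0382. Without the block, leaving out CL1 gave calls for ENSBTAG00000017405 (adjusted p = 0.00185), ENSBTAG00000003794 (0.0207) and ENSBTAG00000047700 (0.0207). CL1 was the lowest CL calf at 168 h in these 3 genes. Leaving out any one of CL2 to CL7 instead called 0 genes of all tested. The lowest adjusted p of any gene in those fits was between 0.0923 (without CL4) and 0.269 (without CL5).

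Compared with birth, 3 of the 4 genes were called higher at 168 h in CL calves by edgeR, where 7.11% of 12876 genes were called higher. Here too a gene high only at 168 h passes the filter on low counts through that group. ENSBTAG00000017405 and ENSBTAG00000003794 had medians of 8 and 6 reads in CL calves at birth, so their calls are not free of this filter. ENSBTAG00000017405 rose from 0.408 ± 0.235 CPM (n = 7) to 5.21 ± 2.33 CPM (n = 7), a log2 fold change of 3.64 ± 0.48 with an adjusted p of 7.6e-05 by edgeR. ENSBTAG00000003794 rose by 2.01 ± 0.59 on the log2 scale (adjusted p = 0.0181), a call that was lost when any one of CL2 to CL6 was left out (adjusted p between 0.0514 and 0.0584). ENSBTAG00000047700 rose by 2.12 ± 0.68 (adjusted p = 0.0270), and its call was lost without CL2 (0.0960), CL3 (0.0855) or CL4 (0.0551).

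ENSBTAG00000047816 had a log2 fold change of 1.83 ± 0.75 from birth to 168 h in CL calves and an adjusted p of 0.0732 by edgeR. With the calf as a block the value was 1.99 with an adjusted p of 0.0470, beside 7.12% of all genes called higher, and the gene was also called without CL6 (0.0431) and without CL7 (log2 fold change 2.61, 0.0246). Within calves ENSBTAG00000017405 was higher at 168 h than at birth in 22 of 22 calves over the 3 breeds, ENSBTAG00000003794 and ENSBTAG00000047816 in 21 and ENSBTAG00000047700 in 19. The 22 include CL1, with a log2 change of 0.09 at 10 reads at both ages. The share of all genes was not computed for this step, and the H and LF samples at 168 h chose the genes, so nothing was read from these counts.

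From 48 h to 72 h no change was called in CL calves for the genes that could be tested. ENSBTAG00000017405 had a log2 fold change of 0.04 ± 0.43 (adjusted p = 0.965 by edgeR) and ENSBTAG00000047700 one of -0.10 ± 0.46 (adjusted p = 0.918), and 0.00782% of all genes, 1 gene, were called. ENSBTAG00000003794 and ENSBTAG00000047816 did not pass the filter on low counts in this comparison. The calf as a block called 4.89% of all genes but neither of the 2 tested.

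From birth to 48 h ENSBTAG00000047816 and ENSBTAG00000047700 had lower means at 48 h in every breed. ENSBTAG00000047700 was called lower in LF calves, from 3.44 ± 2.66 to 1.03 ± 0.664 CPM (n = 7), a log2 fold change of -1.72 ± 0.48 with an adjusted p of 0.0235 by edgeR, where 4.52% of 12794 genes were called lower. It was lower in 7 of 7 LF calves. The call was lost without LF1 (adjusted p = 0.0594), LF3 (0.0563), LF4 (0.0504) or LF7 (0.0742), and it remained with the calf as a block (0.00433).

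In CL calves the log2 fold change of ENSBTAG00000047700 from birth to 48 h was -1.46 ± 0.57 with an adjusted p of 0.0597 by edgeR, beside 7.86% of 12852 genes called lower. With the calf as a block it was called (-1.23, adjusted p = 0.00931). In H calves the value was -0.71 ± 0.73 (adjusted p = 0.603), beside 2.97% of 12508 genes called lower. The gene was lower at 48 h in 5 of 7 CL and 7 of 8 H calves.

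ENSBTAG00000047816 was not called from birth to 48 h by edgeR without the block, with log2 fold changes of -1.35 ± 0.67 in H (adjusted p = 0.236), -1.22 ± 1.04 in CL (0.395) and -1.86 ± 1.07 in LF calves (0.244). With the calf as a block it was called lower in CL (-1.90, adjusted p = 0.0428) and in LF calves (-2.84, 0.0218) and not in H calves (-1.51, 0.104). In those fits 8.68% of all genes were called lower in CL, 6.17% in LF and 5.24% in H calves. Without CL7, the calf with a flat course, the CL value was -2.56 with an adjusted p of 0.0257. The gene was lower at 48 h in 7 of 8 H, 6 of 7 CL and 6 of 7 LF calves.

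ENSBTAG00000017405 passed the filter from birth to 48 h only in CL calves, where its log2 fold change was 0.79 ± 0.45 (adjusted p = 0.186 by edgeR), beside 7.03% of all genes called higher. ENSBTAG00000003794 did not pass in any breed. Without the filter on low counts its values were 0.14 ± 0.36 in H, -1.66 ± 0.73 in CL and -0.90 ± 0.52 in LF calves, with adjusted p of 0.870, 0.118 and 0.289 by edgeR.

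The change from birth to 48 h was compared between breeds for the 3 genes that passed the filter, and no difference was called. For ENSBTAG00000047700 the change was 0.74 ± 0.97 higher in H than in CL calves on the log2 scale (adjusted p = 0.933 by edgeR), 0.99 ± 0.93 higher in H than in LF calves (0.9995) and 0.27 ± 0.77 higher in CL than in LF calves (0.898). The standard errors of these differences were between 0.60 and 1.55 over the 3 genes, so that differences of several-fold were within them. None (0%) of 13210 (H and CL), 13183 (H and LF) or 13339 (CL and LF) genes was called in these tests, with 780, 518 and 1832 genes at an unadjusted p under 0.05 and 0, 4 and 49 calls by DESeq2.

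At birth no difference between breeds was called for the genes that could be tested. ENSBTAG00000047816 was 1.09 ± 0.66 higher in H than in CL calves on the log2 scale (adjusted p = 0.212 by edgeR, 18.5% of 12678 genes called) and 1.10 ± 0.67 higher in H than in LF calves (0.243, 10.3% of 12698 genes called). Without CL7 the difference between H and CL calves was 1.86 with an adjusted p of 0.0341 and was called. ENSBTAG00000047700 was 0.77 ± 0.68 higher in H than in CL calves (0.396) and 0.84 ± 0.60 higher in H than in LF calves (0.319).

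Between CL and LF calves at birth the log2 differences were 0.03 ± 0.79 for ENSBTAG00000047816 (adjusted p = 0.995 by edgeR) and 0.08 ± 0.55 for ENSBTAG00000047700 (0.977). No gene (0%) of 12744 was called between these breeds, with 1277 genes at an unadjusted p under 0.05 and 19 calls by DESeq2. ENSBTAG00000017405 and ENSBTAG00000003794 did not pass the filter at 0 h, and without the filter their adjusted p between breeds was at least 0.114.

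**Figure D3:**
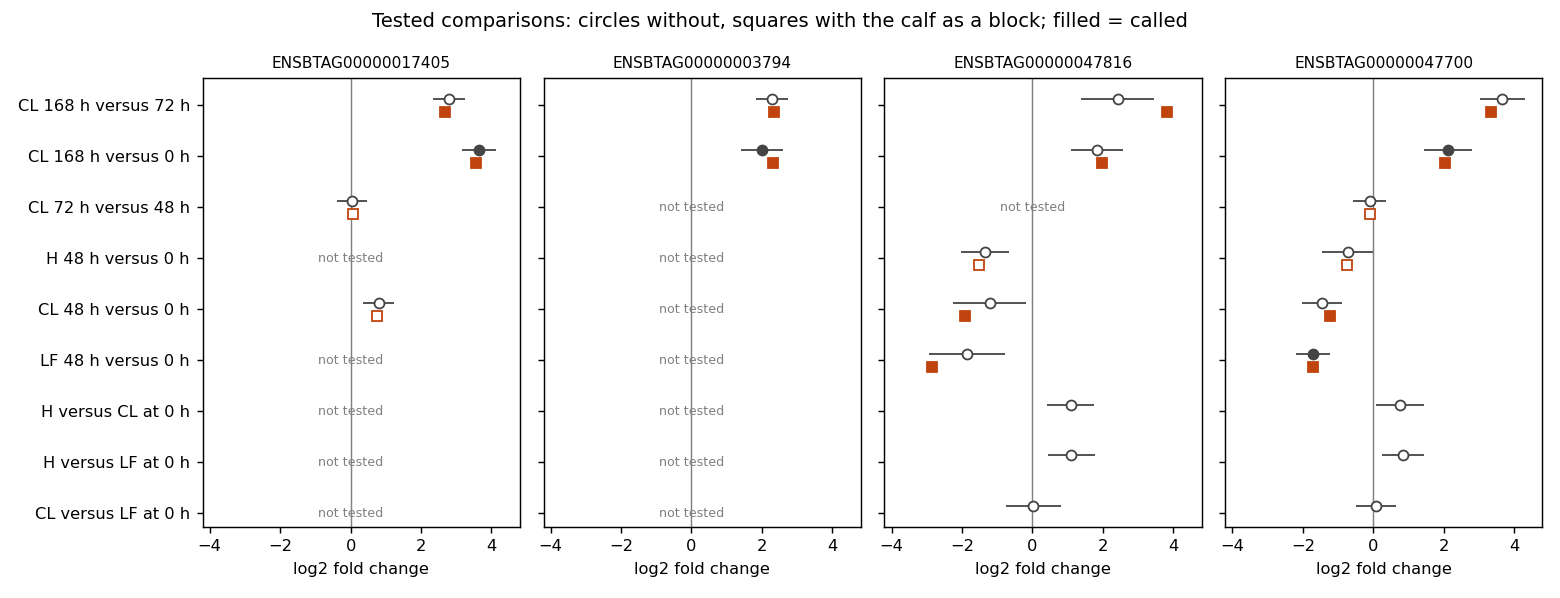
Log2 fold change (x axis) of each gene (panels) in the comparisons that the choice of the genes did not use (y axis), without the calf as a block (circles, bars show SE) and with it (squares, no bars); filled symbols were called and "not tested" marks genes under the filter on low counts. The rises at 168 h in CL calves are filled with the block for all 4 genes. For ENSBTAG00000017405 in CL calves the value from 48 h to 72 h lies near 0 and that from 0 h to 48 h above 0, neither called.

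The correlation between the genes was computed at each age over the 22 calves on log2 CPM with the breed mean taken off, 24 relations in all, with p from 100000 permutations of calves within breeds. At 72 h and 168 h these calves include the H and LF samples that chose the genes, and the part of the choice in r was not tested. At 168 h ENSBTAG00000017405 and ENSBTAG00000003794 were correlated (r = 0.930, rho = 0.901, permutation p = 1e-05, the smallest these permutations can give, adjusted p = 0.00024 for r and 0.00012 for rho). Without the 2 calves farthest from the median, CL1 and H8, r was 0.861, and without CL1 alone it was 0.879. Calves high in one gene were high in the other, from CL1 at the lower end to H1 at the upper end.

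Within breeds at 168 h r between these genes was 0.884 in H, 0.984 in CL and 0.924 in LF calves, with exact permutation p of 0.00506, 0.0119 and 0.00833. The adjusted p over the 18 within-breed relations was 0.0714 for each of the 3. Without the 2 farthest calves r was 0.798 in H, 0.349 in CL and 0.486 in LF calves, so that the relation within CL and LF calves rested on those calves.

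The other 5 pairs were not called at 168 h, with r between 0.03 and 0.47 and adjusted p between 0.174 and 0.919 by permutation. For ENSBTAG00000047816 and ENSBTAG00000047700 r was 0.03 (rho = -0.03), although both were high at this age in nearly all calves. The calf with the most ENSBTAG00000047816, H3 with 39.9 CPM, had 32.5 CPM of ENSBTAG00000047700, while LF6, with 76.1 CPM of the latter, had 1.15 CPM of the former.

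At 48 h and 72 h this pair was correlated, with r = 0.678 (rho = 0.763, permutation p = 0.0006, adjusted p = 0.0036 for r and 0.00108 for rho) and r = 0.752 (rho = 0.876, p = 3e-05, adjusted p = 0.00036 and 0.00012). Without the 2 farthest calves r was 0.701 and 0.800. At 48 h ENSBTAG00000047816 held at most 3 reads in 4 of 7 CL and 5 of 7 LF samples. At 72 h it did so in 3 of 7 CL and 5 of 7 LF samples, so part of these values lies at the floor. Whether the correlation differed between ages was not tested.

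Another 3 relations passed the threshold for r at earlier ages. ENSBTAG00000003794 and ENSBTAG00000047700 had r = 0.661 at birth (rho = 0.724, adjusted permutation p = 0.00296 and 0.00108, r = 0.731 without the 2 farthest calves). ENSBTAG00000003794 held at most 3 reads in 4 of 8 H, 1 of 7 CL and 2 of 7 LF samples at birth, so part of its values lies at the floor. At 72 h ENSBTAG00000017405 and ENSBTAG00000047700 had r = 0.549 (rho = 0.614, adjusted p = 0.00528 and 0.0156, r = 0.501 without the 2 farthest calves). ENSBTAG00000017405 and ENSBTAG00000003794 had r = 0.651 at 72 h (rho = 0.608, adjusted p = 0.0262 and 0.0180), but r was 0.308 without CL2 and LF5, so this relation rested on those calves. At 0 h and 48 h the same pair had r of 0.326 and -0.02 (adjusted p = 0.265 and 0.919), at counts of a few reads per sample.

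**Figure D4:**
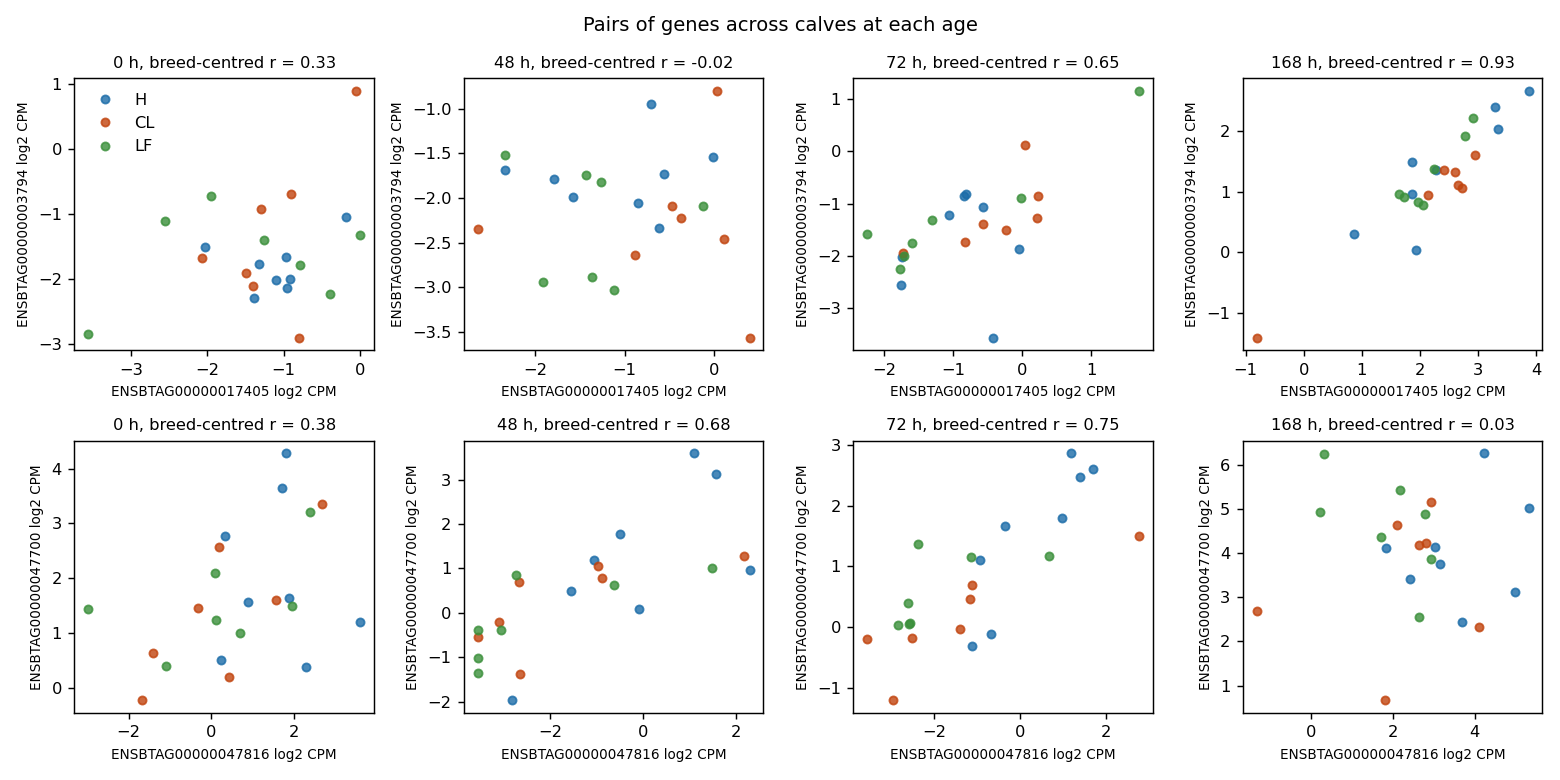
Log2 CPM of ENSBTAG00000017405 against ENSBTAG00000003794 (upper row) and of ENSBTAG00000047816 against ENSBTAG00000047700 (lower row) at 0, 48, 72 and 168 h from left to right; each point is 1 calf, coloured by breed, and r is given with the breed mean taken off. For the upper pair r is 0.93 at 168 h and 0.65 at 72 h, where LF5 lies far from the other calves, and for the lower pair it is 0.68 at 48 h, 0.75 at 72 h and 0.03 at 168 h.

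Over all 88 samples r between the 4 genes was between 0.548 and 0.845, and with the means of the 12 groups taken off it was between 0.216 and 0.532. These values are descriptions, since the samples share calves and the common rise at 168 h enters the former.

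Whether a calf kept its place from one age to the next was examined as 16 relations added after seeing the data. ENSBTAG00000047700 kept the order of calves from birth to 48 h (r = 0.692, rho = 0.737, permutation p = 0.00107, adjusted p = 0.00592 for r and 0.00213 for rho, r = 0.617 without the 2 farthest calves) and from 48 h to 72 h (r = 0.810, rho = 0.832, p = 5e-05, adjusted p = 0.0008 and 0.00032, r = 0.747). From 72 h to 168 h it had r = -0.26 (rho = -0.23, adjusted p = 0.422).

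ENSBTAG00000047816 kept the order from 48 h to 72 h (r = 0.732, rho = 0.772, permutation p = 0.00111, adjusted p = 0.00592 and 0.0012, r = 0.819 without the 2 farthest calves), and from 72 h to 168 h it had r = 0.449 (rho = 0.547, adjusted p = 0.160 and 0.0518). At 48 h and 72 h many beef samples of this gene lay at the floor. ENSBTAG00000017405 had r = 0.541 from 48 h to 72 h (rho = 0.474, adjusted permutation p = 0.0282 and 0.0845) and -0.06 from 72 h to 168 h (adjusted p = 0.756). ENSBTAG00000003794 had r = 0.672 from birth to 48 h (rho = 0.548, adjusted p = 0.0277 and 0.0562), which fell to 0.306 without the 2 farthest calves, and -0.07 from 72 h to 168 h (adjusted p = 0.756).

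The genes most like each of the 4 were ranked by Pearson's r of log2 CPM over all 88 samples among the 13800 other genes that passed the filter. The common rise at 168 h enters this r, so r with the group means taken off is given as well. For ENSBTAG00000017405 the nearest was ENSBTAG00000003794 (r = 0.845), followed by ENSBTAG00000011921 (0.789), ENSBTAG00000011059 (0.788), ENSBTAG00000015330 (0.783) and ENSBTAG00000008493 (0.781). With the group means taken off r was 0.532, 0.424, 0.392, 0.319 and 0.553 in that order, at ranks 3, 40, 99, 475 and 2. For ENSBTAG00000003794 they were ENSBTAG00000011921 (0.870), ENSBTAG00000017405, ENSBTAG00000013170 (0.833), ENSBTAG00000017026 (0.810) and ENSBTAG00000048246 (0.804). These 2 genes thus shared ENSBTAG00000011921, which was at 0.350 ± 0.154 CPM in H calves at birth and 2.60 ± 0.690 CPM at 168 h (n = 8).

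For ENSBTAG00000047816 the nearest was ENSBTAG00000047449, with r = 0.942 over all samples and 0.889 with the group means taken off. It was followed by ENSBTAG00000021958 (0.805 and 0.702), ENSBTAG00000015708 (0.765 and 0.542), ENSBTAG00000007191 (0.764 and 0.712) and ENSBTAG00000003544 (0.763 and 0.695). ENSBTAG00000047449 had the same course, with 6.32 ± 6.28 CPM in H calves at birth, 2.08 ± 2.06 CPM at 48 h and 26.4 ± 18.7 CPM at 168 h (n = 8), and it was also among the 5 largest rises in H and in LF calves. Whether the 2 genes are similar in sequence and share reads was not tested, as their sequences were not at hand.

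For ENSBTAG00000047700 the nearest were ENSBTAG00000048135 (r = 0.871, and 0.806 with the group means taken off), ENSBTAG00000038337 (0.841 and 0.727), ENSBTAG00000018531 (0.829 and 0.620), ENSBTAG00000003408 (0.805 and 0.607) and ENSBTAG00000048268 (0.792 and 0.634). None of the other 3 genes was among its 5 nearest, the highest being ENSBTAG00000003794 at rank 11. In turn ENSBTAG00000047700 ranked 6 for ENSBTAG00000047816 and far lower for ENSBTAG00000017405. The reads of the 4 genes fell about equally on both strands, as from a library that does not mark strand, so reads of an overlapping antisense gene could not be told apart from theirs.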

How the data were processed

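Whole-blood RNA of 22 calves at 4 ages (88 samples) was sequenced as single-end mRNA libraries. The deposited files hold raw counts of reads per Ensembl gene, made by the authors, whose processing notes list the tools cutadapt, FastQC and STAR and the build UMD3.1, with versions not given in the sources used here. The unstranded column was used. Rows for unmapped, multimapping, no-feature and ambiguous reads were left out of library sizes, and multimapping reads were 6.42% to 49.1% of reads per sample. Counts on genes were between 10023822 and 39304404 per sample, and intervals and floors cover counting error only.

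Groups and ages were taken from the labels. The 4 genes, the lists and the tests were chosen with earlier results of these data known. Lists of blood cell and lymphocyte markers could not be applied, since the Ensembl identifiers could not be paired with symbols, and the label whole blood was therefore not checked against markers. Named genes were the 4 and the 5 most like each by r.

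Each comparison was fitted across all genes passing filterByExpr with edgeR 4.0.16 (R 4.3.3; TMM, robust quasi-likelihood test) on the samples compared, with Benjamini-Hochberg adjustment over all genes tested. A gene was called when its adjusted p was under 0.05 and its fold change 1.5 or more either way, and differences of changes at an adjusted p under 0.05. The SE of a log2 fold change was its size divided by the root of F. Alternatives were DESeq2 1.42.0, another normalization, no filter, at least 10 counts in every sample, all 88 samples in one fit, leaving out the 9 samples with an R in their RNA number, each calf left out, and the calf as a block. Samples of different ages came from the same animal where the labels give them the same tag number, a field separate from the RNA number. With group means subtracted, samples of the same calf correlated at a mean r of 0.211 to 0.536 over breeds and steps, with the lowest single r at -0.155 (CL calves, 0 h to 168 h). Correlations used log2 CPM with a prior count of 2 and two-sided permutation tests. The fits were tested on simulated data. No samples of a group were duplicates (280 pairs, lowest chi-square per degree of freedom 33.9).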

Additional observations from a re-analysis of the deposited data

Results flagged for a closer look

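In 6 of 48 groups of 7 or 8 calves (4 genes, 3 breeds, 4 ages) the highest or lowest calf stood farther from its nearest neighbour, on the log2 CPM scale, than Dixon's 95% limit allows. Chance flags about 1 in 20 groups. ENSBTAG00000017405 was low in CL2 at 48 h (0.07 CPM, other CL calves 0.459 to 1.24 CPM). In CL1 at 168 h ENSBTAG00000017405 had 0.49 CPM (others 4.30 to 7.64) and ENSBTAG00000003794 had 0.29 CPM (others 1.84 to 2.97). ENSBTAG00000003794 was high in LF5 at 72 h with 2.15 CPM (others 0.124 to 0.454). ENSBTAG00000047816 was high in CL7 at 72 h with 6.79 CPM (others 0 to 0.374) and low in CL6 at 168 h with 0.31 CPM (others 3.40 to 17.1). The change from 72 h to 168 h over the other genes in CL1 correlated with the mean change of the other breeds at r = 0.185 and in LF5 at 0.291, with all calves between 0.142 (H5) and 0.771 (H1), and the part of this in the values of the 4 genes was not tested.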

How the results depend on the processing

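For the rises at 168 h over 72 h in CL calves, not called at first, DESeq2 gave log2 fold changes of 2.80 for ENSBTAG00000017405, 2.30 for ENSBTAG00000003794 and 3.68 for ENSBTAG00000047700, and the fit of all 88 samples 2.81, 2.31 and 3.68, all called. The calf as a block (replicate block) called them at 2.67, 2.35 and 3.34 and ENSBTAG00000047816 at 3.83. It also called ENSBTAG00000047816 at 168 h over 0 h in CL (1.99) and at 48 h over 0 h in CL (-1.90) and LF calves (-2.84), and ENSBTAG00000047700 at 48 h over 0 h in CL calves (-1.23, DESeq2 -1.45), and changed no other call. Without the R samples ENSBTAG00000003794 at 168 h over 0 h in CL calves was no longer called (1.95), and ENSBTAG00000047816 at 48 h over 0 h in CL calves was (-3.35). Without the filter ENSBTAG00000047700 at 168 h over 0 h in CL calves lost its call (2.13), as it did in LF calves at 48 h over 0 h in the fit of all 88 samples (-1.69).

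Uncalled values changed sign for ENSBTAG00000047700 in CL calves from 48 h to 72 h (0.039 without the R samples), for ENSBTAG00000047816 between CL and LF calves at birth (-0.0060 by DESeq2), in its difference of early change between H and CL calves (2.29 without the R samples, 0.39 with the block) and between CL and LF calves (-1.47 without the R samples), and for r of ENSBTAG00000047816 with ENSBTAG00000047700 at 168 h (-0.0017 without CL1).

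Leaving out 1 calf gave log2 fold changes at 168 h over 72 h in CL calves of 2.59 to 2.95 (ENSBTAG00000017405), 2.08 to 2.71 (ENSBTAG00000003794), 1.82 to 2.41 (ENSBTAG00000047816) and 3.16 to 3.99 (ENSBTAG00000047700), and with the block 2.40 to 2.96, 2.13 to 2.59, 3.36 to 4.03 and 2.91 to 3.65. At 168 h over 0 h the ranges were 1.75 to 2.85 for ENSBTAG00000003794, 1.19 to 2.61 for ENSBTAG00000047816 and 1.59 to 2.63 for ENSBTAG00000047700. At 72 h over 48 h they were -0.088 to 0.13 for ENSBTAG00000017405 and -0.27 to 0.0098 for ENSBTAG00000047700. At 48 h over 0 h ENSBTAG00000047816 in CL calves was at -2.56 to -0.87 and ENSBTAG00000047700 in LF calves at -1.97 to -1.38. At birth ENSBTAG00000047816 was 0.56 to 1.86 higher in H than in CL calves, and between CL and LF calves it was at -0.75 to 0.50 and ENSBTAG00000047700 at -0.47 to 0.51.

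Counts of called genes moved by over 1.5 times at 168 h over 72 h in CL calves (2, from 0 without the R samples to 731 with the block), at 72 h over 48 h in CL calves (1, from 0 to 625 with the block) and at 48 h over 0 h in H calves (868, from 572 without the R samples to 1397 with the block). Leaving out 1 calf gave 0 to 502 calls (502 without CL1) at 168 h over 72 h in CL calves and 760 to 1933 (1308 with all) between H and LF calves at birth. Where edgeR called 0 genes, DESeq2 called 19 between CL and LF calves at birth, and 0, 4 and 49 in the differences of early change. None of the causes was tested. With at least 10 counts in every sample the 4 genes gave values in 6 cases only, and where DESeq2 gave no adjusted p no value was used. At levels of a few reads, ENSBTAG00000017405 and ENSBTAG00000003794 before 168 h are limited by depth.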
